A study of Mesocricetus auratus with 11 samples.

Results

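CpG methylation was compared between MT2 vehicle cells, a Syrian hamster cell line transformed by a carcinogen, and primary cells from Syrian hamster fetuses. The members were the CpGs read at least 10 times in all 8 libraries of these groups, 4 per group, after both strands of a CpG were summed. They numbered 91277 of the 1870635 CpGs covered in any of the 8 libraries (4.88%) and lay on 1769 of 6396 scaffolds. The 8 libraries are those of 11 that bear on the comparison. Gains and losses were described with 2 properties held apart, the number of CpGs nearby and the methylation level from which a CpG started, and then by how far they reached along a scaffold.

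In mammals most cytosines of CpG dinucleotides carry a methyl group, which DNMT1 copies at replication and DNMT3A and DNMT3B place anew. CpG islands, dense runs of CpGs at many gene starts, are usually kept free of it. Tumours and cultured lines are known for loss of methylation across wide CpG-poor domains and for gain at some islands. Reduced representation bisulfite sequencing (RRBS) reads the CpG-rich part of a genome, counting a cytosine that resisted bisulfite as methylated, and reads a C-to-T sequence difference as an unmethylated cytosine.

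MT2 vehicle cells came from a single morphologically transformed colony obtained with benzo[a]pyrene at 5 µg/mL, and were near passage 28. They received 0.05% DMSO for 48 h, the vehicle of a drug arm not analysed here, and their 4 libraries were wells seeded from 1 thawed stock. Primary cells were untreated and came from 4 separate fetuses at gestation day 13.5, grown for under 3 days to passage 1. They were a mixture of ectodermal and mesodermal cells left after head, viscera and limbs had been discarded. Both groups were female. Line, clone, passage, medium, vehicle, cell mixture and transformation cannot be told apart in this design, p-values measure the spread of wells on one side and of fetuses on the other, and the cell types could not be checked against markers because methylation was the only readout.

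The libraries held 17834610 to 37595680 reads over CpG positions in MT2 and 19331056 to 37417483 in primary cells, and their median depth at the members was 31 to 57 reads. MT2 replicates 1 and 4 were deeper than MT2 replicates 2 and 3, and primary replicates 3 and 4 deeper than primary replicates 1 and 2. Averaged over the members, MT2 libraries lay between 37.9% and 38.1% and primary libraries between 40.5% and 41.0%, so that MT2 was lower by 2.80 percentage points on average (-2.80, exact permutation p = 0.0286, n = 4 against 4). Restricting it to the 30848 CpGs with 20 reads in every library gave -5.50 points, pooling reads over CpGs gave -5.91, and taking each library's own CpGs gave -1.003.

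The first separation asked whether CpG density made a difference among CpGs of equal mean level. Density was the number of covered CpGs within 250 bp on each side, the CpG itself included, so it counts what RRBS reached and not every CpG of the genome. CpGs were placed in classes of their mean level over all 8 libraries, which uses both groups alike. The MT2 level is thereby part of the class variable, and the class limits bound how far a CpG can differ. Sizes are therefore not compared between classes. Starting level is not held equal inside a class. Over all members, 39.9% of sparse CpGs started at 80% or more in primary replicates 1 and 2, and 93.3% of the densest below 5%. The sign and order of the differences mix density with starting level, and the 2 cannot be told apart here. At the same mean level, from 5 to 80%, sparse CpGs were lower in MT2 and the densest reported class was higher.

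The class of 20 to 50% mean level is described first. There the 7246 CpGs with 1 to 4 CpGs nearby had levels of 27.0%, 25.5%, 25.7% and 26.8% in MT2 and 44.8%, 45.0%, 45.4% and 46.1% in primary cells. The 294 CpGs with 30 or more nearby had 44.5%, 44.4%, 47.5% and 41.8% in MT2 and 19.4%, 20.9%, 18.2% and 19.2% in primary cells. The groups did not overlap in either set and stood in opposite order. From the sparsest to the densest class the differences were -19.1, -11.4, -0.62, +11.1 and +25.1 points, and all but the middle one passed an exact permutation test over libraries (adjusted p = 0.0387, n = 4 against 4, over 23 combinations of level and density). Single CpGs followed: 62.7% of the sparse ones were at least 10 points lower in MT2 and 20.1% at least 10 points higher, against 12.6% and 68.7% of the densest. The sizes are larger than in classes set by held-out primary libraries, where the densest CpGs starting at 20 to 50% differed by +5.93 points.

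The neighbouring level classes showed the same order. At 5 to 20% the differences ran from -6.79 points among the sparsest CpGs through -2.55, +3.84 and +8.85 to +9.01 among the densest. At 50 to 80% they were -10.7, -5.12, -0.39 and +5.15 points, with too few of the densest CpGs to report. The 2 values nearest 0 in the classes from 20 to 80%, both at 10 to 19 CpGs nearby, did not pass the test and changed sign under other settings. Counting only members as neighbours ended the call at 5 to 9 nearby in the class 20 to 50% (-0.60 points) and among the sparsest at 5 to 20% (-1.30 points), and turned that at 5 to 9 nearby there to +6.14. Single libraries also decided some of these calls. At 5 to 20% the value at 5 to 9 nearby was -1.06 to -0.24 points and not called without any 1 MT2 library, and that at 10 to 19 nearby was 2.42 and 2.17 points and not called without primary replicate 1 or 2. At 50 to 80% the value at 20 to 29 nearby was 1.80 and 1.56 points and not called without MT2 replicate 1 or 4. The sparsest value at 5 to 20% was -4.60 and -4.57 points and not called without MT2 replicate 2 or 3. Without MT2 replicate 2 no combination passed (exact permutation, adjusted p of at least 0.0548, n = 3 against 4), though the sparsest and densest CpGs of the class 20 to 50% still differed by -15.8 and +24.2 points.

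At the ends of the scale the class limits leave room for small differences only. At 80% or more all 4 density classes were higher in MT2, by 2.15, 2.11, 2.95 and 3.12 points, of which the last missed the test (exact permutation, adjusted p = 0.0692, n = 4 against 4). The call of the sparsest was lost without any 1 MT2 library, at 1.05 to 1.40 points. Below 5% the 11790 densest CpGs averaged 0.325% ± 0.041 in primary cells and 0.589% ± 0.187 in MT2 (SD, n = 4 each). This difference of +0.26 points and that of +0.40 points at 20 to 29 CpGs nearby passed the test, but each lost it when any 1 primary library was left out.

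**Figure D1:**
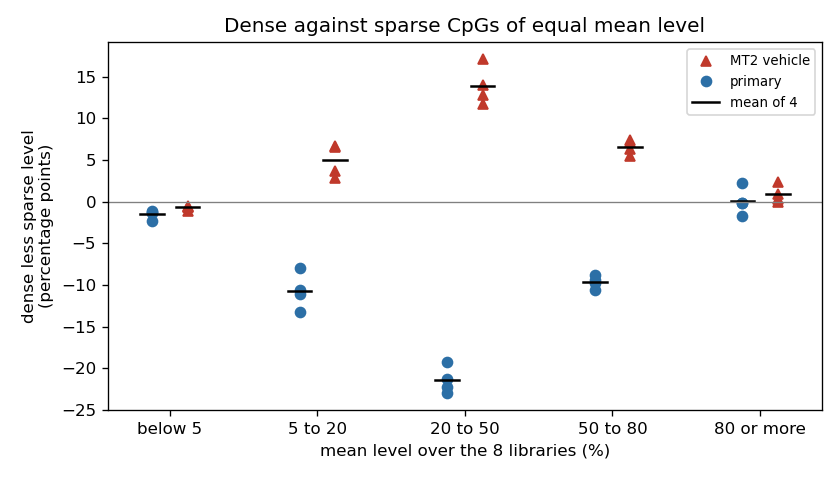
Level of dense CpGs (20 or more nearby) less that of sparse CpGs (1 to 4 nearby), in percentage points, for each library in 5 classes of mean level over the 8 libraries. Points are libraries and bars are means of 4; from 5 to 80% every primary library lies below 0 and every MT2 library above it.

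The contrast of dense with sparse CpGs, computed inside each library, put this in 1 number per class. Starting level is not held equal in it either. In primary cells dense CpGs of 20 to 50% mean level lay below sparse ones by 19.3 to 23.0 points, and in MT2 they lay above them by 11.8 to 17.1 points. The change in the contrast was 15.7, 35.4 and 16.3 points in the classes 5 to 20%, 20 to 50% and 50 to 80% (exact permutation test, adjusted p = 0.0357 for each, n = 4 against 4). It kept its direction and its side of the threshold in these classes under every alternative run. Below 5% it was 0.82 points and was lost under 8 of the alternatives, and at 80% or more it was 0.85 points with overlapping groups (exact permutation, adjusted p = 0.343, n = 4 against 4).

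The second separation took the starting level from primary cells. Classes were set by primary replicates 1 and 2, and MT2 was compared with primary replicates 3 and 4, which took no part in the choice. With 4 libraries against 2 the smallest p that the exact permutation test can give is 0.0667, so these values are given without calls. The held-out fetuses still differed from the class limits. Sparse CpGs that started below 5% had 15.8% and 16.3% in primary replicates 3 and 4, whereas the densest had 0.643% and 0.719%. A starting class therefore does not hold sparse and dense CpGs at quite the same level. The order of the 2 groups within a cell is the value to read. CpGs that started low have little room to fall, and those that started high little room to rise. The limits of the scale thus favour gains in the lowest class and losses in the highest.

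CpGs that started below 5% were higher in MT2 at every density. The sparsest had a mean of 16.0% in the held-out primary libraries and 20.0% in MT2, a difference of +3.91 points, and the densest had 0.681% and 2.05%, or +1.37 points. Between them the differences were +5.21, +3.58 and +2.04 points. For the 12368 densest CpGs the 4 MT2 libraries read 2.11%, 2.05%, 2.01% and 2.03%, each above both held-out primary libraries. The sparsest value turned to -0.54 points without primary replicate 2, when primary replicate 1 alone set the classes.

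CpGs that started at 5 to 20% were higher in MT2 at all densities except the sparsest, where the difference was -0.16 points and the groups overlapped. The others were +4.32, +7.82, +5.73 and +5.12 points in order of density. With 1 library left out the first of these ranged down to 1.17 points and the second to 4.11, both without primary replicate 1, and the sparsest value reached -4.50 points without primary replicate 2. At 20 to 50% the sign followed density: -7.39 and -3.93 points for the sparser 2 classes, +1.07 points with overlapping groups in the middle, and +4.95 and +5.93 points for the denser 2.

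CpGs that started at 50 to 80% showed the widest losses. The 7802 sparse ones had 52.6%, 52.8%, 52.8% and 52.8% in MT2 and 65.5% and 65.6% in the held-out primary libraries, a difference of -12.8 points. The difference was -7.70 points at 5 to 9 CpGs nearby and -4.48 points at 10 to 19, while at 20 to 29 and at 30 or more the groups overlapped, with +1.95 and -1.15 points. At 80% or more the differences were -9.43, -6.79, -5.25 and -1.55 points from the sparsest class to 20 to 29 nearby. The last turned to +0.76 points without primary replicate 1.

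**Figure D2:**
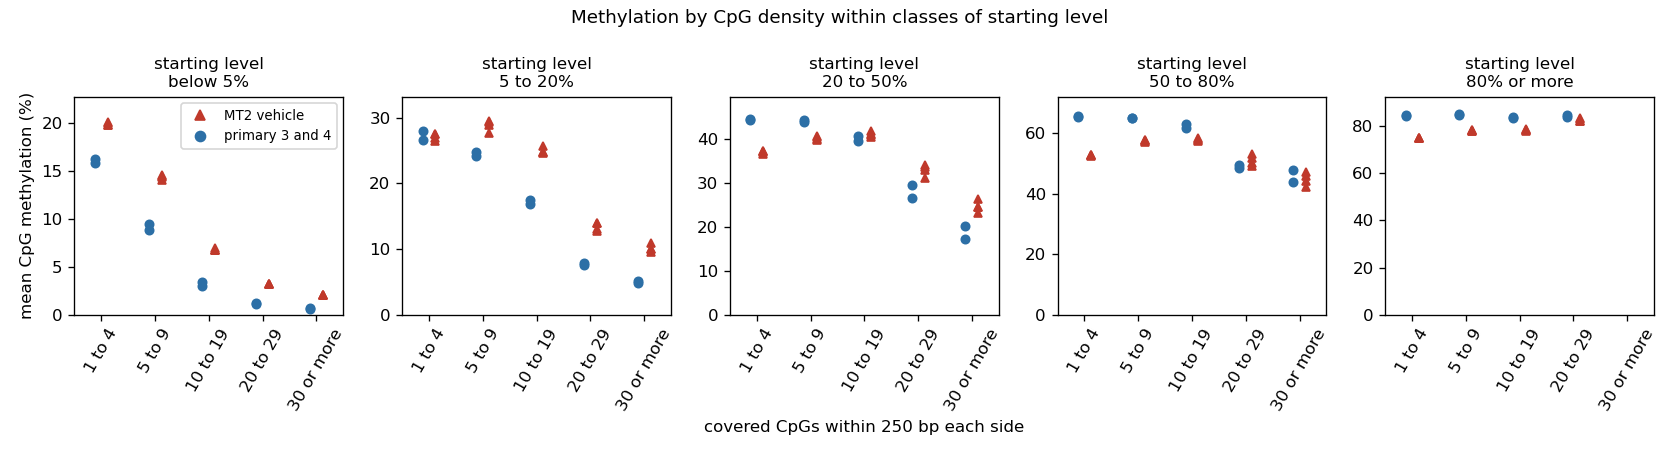
Mean methylation (%) of each MT2 vehicle library (triangles) and of primary replicates 3 and 4 (circles) by number of covered CpGs within 250 bp each side, in 5 panels for the starting level in primary replicates 1 and 2; each panel has its own vertical scale from 0, and the densest class at 80% or more held under 100 CpGs and is not drawn. MT2 lies above primary cells at all densities in the lowest class, and below them among sparse CpGs from 20% upward.

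Read the other way, the difference moved with the starting level at a given density. Among sparse CpGs it was +3.91, -0.16, -7.39, -12.8 and -9.43 points from the lowest starting class to the highest. Among CpGs with 10 to 19 nearby it was +3.58 points below 5%, +7.82 at 5 to 20%, +1.07 at 20 to 50% and -5.25 at 80% or more. Neither course was steady. The 4 density classes below 30 were then given the same mix in every starting class, by their numbers of CpGs. The highest starting class differed from the lowest by -10.8 points, and by -12.7 to -8.54 under the alternatives run. The limits of the scale favour this negative sign, so its stability is no further support. Whether starting level mattered beyond these limits was not tested. Density, with the 4 starting classes below 80% given the same mix in every density class, by their numbers of CpGs, gave +4.07 points between its densest and sparsest classes. That aggregate was unstable, at -1.55 points with 20 reads, -3.42 with density counted within 100 bp and +7.29 within 500 bp.

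Class by class the contrast of dense with sparse CpGs was steadier than this aggregate. It differed between MT2 and held-out primary libraries by +5.58 points at a starting level of 5 to 20%, +12.7 at 20 to 50%, +13.9 at 50 to 80% and +8.42 at 80% or more. Below 5% it was -2.27 points, the sparse CpGs of that class being higher by more points than the dense ones. The value below 5% changed sign under some alternatives, and the other 4 did not under any that was run. Level and density were strongly tied in the members, since 39.9% of sparse CpGs but 0.423% of the densest started at 80% or more, and 9.29% against 93.3% started below 5%.

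Losses were not uniform shifts of every CpG. Among the 16639 CpGs that started at 50 to 80%, 22.3%, 27.0%, 27.6% and 23.0% read below 20% in MT2 replicates 1 to 4, against 12.5% and 9.65% in primary replicates 3 and 4. The share above 80% was 32.5% to 38.6% in MT2 and 35.8% to 39.1% in those primary libraries, which overlap. Of the 10539 CpGs that started at 20 to 50%, 38.2% to 44.02% read below 20% in MT2 and 24.8% to 29.3% in held-out primary cells. There the share above 80% was also higher in MT2, at 16.7% to 22.4% against 13.6% to 16.2%, and the share between 20 and 80% was lower, at 33.5% to 45.1% against 54.5% to 61.6%.

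Both ends also received CpGs from the far side of the scale. Of the 23234 CpGs that started at 80% or more, 8.22% to 11.9% read below 20% in MT2 and 2.32% to 3.81% in held-out primary cells. Of the 34947 that started below 5%, 1.93% to 3.03% read above 80% in MT2 and 0.784% to 1.07% in those primary cells. The share of intermediate CpGs moved with the library too: it was higher in the deeper MT2 replicates 1 and 4 than in replicates 2 and 3. Thinning each CpG to 10 reads left that order, and the part of library preparation in it was not tested. When the classes came from primary replicates 3 and 4 and the display from primary replicates 1 and 2, the intermediate shares of the class 50 to 80% overlapped, at 34.3% to 46.5% in MT2 and 43.4% to 45.4% in primary cells, while the shares below 20% did not, at 21.1% to 26.5% against 13.8% to 13.9%.

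**Figure D3:**
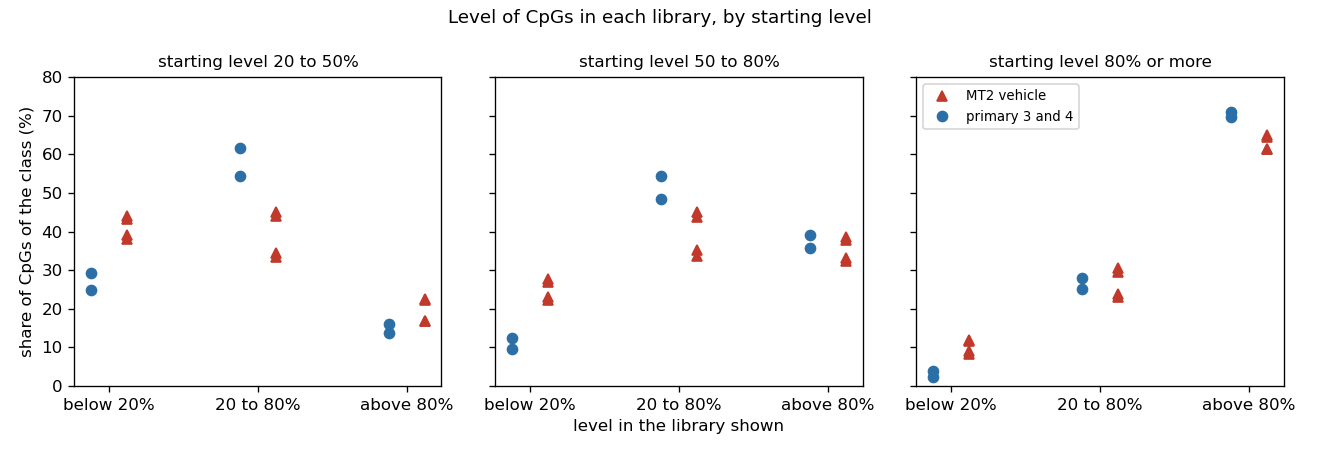
Share of CpGs (%) that read below 20%, from 20 to 80% and above 80% in each library, for CpGs with starting levels of 20 to 50%, 50 to 80% and 80% or more in primary replicates 1 and 2. Triangles are the 4 MT2 vehicle libraries and circles primary replicates 3 and 4; in all 3 panels the MT2 libraries hold more CpGs below 20%.

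CpG by CpG, a quasi-binomial logistic model with a dispersion moderated across all CpGs called 8.55% of the 91277 members at a Benjamini-Hochberg adjusted p below 0.05, 5.81% lower in MT2 and 2.74% higher. Against the held-out primary replicates 3 and 4 alone it called 3.87%, with 2.55% lower and 1.32% higher. The calls spread unevenly over the combinations of starting level and density. Sparse CpGs that started at 50 to 80% were called lower in 598 of 7802 cases (7.66%) and higher in 137 (1.76%). Those that started below 5% with 5 to 9 CpGs nearby were called lower in 14 of 4154 cases and higher in 71 (1.71%).

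The densest CpGs were rarely called, in 2 cases lower and 20 higher of 13254. Their median depth was 31 reads against 46.5 among the sparsest, and the part of depth and of the dispersion prior in the number of calls was not tested. Leaving out primary replicate 3 or 4 turned the balance of these held-out calls, from 65.8% lower to 49.0% and 44.9%, and leaving out any 1 MT2 library cut them to between 903 and 1514.

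Summing reads over tiles of 1 kb that held at least 3 members made local changes visible. Of 10178 tiles 20.8% were called, 12.3% lower and 8.55% higher. Sparse tiles, with a mean density below 5, were called lower in 25.9% of cases and higher in 7.05%. Tiles of 5 to 15 were lower in 16.7% and higher in 9.58%, and tiles of 15 or more were lower in 1.31% and higher in 8.01%. Starting level was not held equal in these shares. Dense members mostly started low, with little room to fall, so density and starting level cannot be told apart in them. Among the 317 dense tiles called higher the median level was 0.645% in primary cells and 15.5% in MT2, and 195 of them stayed below 20% in MT2. Tiles called lower mostly ended at intermediate levels, 69.3% of them between 20 and 80% and 29.03% below 20%.

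The tiles named here were chosen among called tiles, without overlap of the groups and with a median of at least 100 reads. A call was thus a condition of choice, and a pass of the quasi-binomial test by a named tile is no further support. The named tiles had the 3 largest differences of at least 25 points in each direction and density class. No annotation of the genome build was used, so they are named by scaffold and position alone. Among sparse tiles that fell, KB708228.1:1993001-1994000 had 1.64%, 0%, 3.45% and 5.20% in MT2 and 86.3%, 81.2%, 89.0% and 92.7% in primary cells. It held 3 CpGs, and its difference of -84.8 points passed the quasi-binomial test (adjusted p = 2.33e-06). The 0% stood on 168 reads summed over its CpGs. They would allow up to 1.79% if all were independent molecules, and more if not. Methylation of this tile read 81.2% or more in every fetus and 5.20% or less in every MT2 well.

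The 2 other sparse tiles that fell behaved alike in MT2 but not in primary cells. KB708166.1:7950001-7951000 read 0% to 3.47% in MT2 and 71.5% to 78.8% in primary cells. KB708353.1:453001-454000 read 1.41% to 6.94% in MT2, and 52.2% in primary replicate 1 against 81.1% to 85.6% in the other primary libraries. Its share of reads was 1.68 times as high in MT2 as in primary cells.

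Among sparse tiles that rose, KB708264.1:2732001-2733000 was methylated in every read of all 4 MT2 libraries, which had 168, 127, 92 and 195 reads summed over its CpGs. Primary replicates 1 to 4 read 0%, 14.2%, 25.5% and 9.77%. The rise of 87.6 points passed the quasi-binomial test (adjusted p = 9.08e-06). KB708147.1:322001-323000 read 85.4% to 100% in MT2 and 0% to 26.9% in primary cells, and KB708295.1:1568001-1569000 98.1% to 100% and 10.3% to 33.3%. In all 3 the MT2 wells read 85.4% or more while the fetuses differed among themselves.

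At intermediate density KB708272.1:3270001-3271000 fell from a primary mean of 83.6% ± 5.01 (SD, n = 4) to 2.95% ± 3.71 (SD, n = 4). KB708244.1:808001-809000 fell from 85.3% to 10.0%, and KB708217.1:3413001-3414000 from 88.5% to 15.3%, with MT2 replicates of the last spread from 0% to 33.4%. The first of these lies inside none of the wide stretches described further on, whereas the second starts within a 300 kb run of falling windows. Rising tiles of this density included the most deeply read one, KB708321.1:2229001-2230000, with 554 reads in its shallowest library. It had 97.3%, 90.2%, 100% and 91.6% in MT2 and 19.6%, 16.0%, 11.3% and 11.1% in primary cells, and passed the quasi-binomial test (adjusted p = 2.001e-07). KB708196.1:2994001-2995000 and KB708236.1:6122001-6123000 rose from 9.94% to 97.5% and from 12.9% to 94.9%, and MT2 held 0.55 and 0.381 times the primary share of reads there.

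Among dense tiles that rose, 1 of the 3 named had no methylated read in primary cells. KB708275.1:2518001-2519000, with 5 CpGs, had no methylated read among 119, 207, 142 and 188 reads summed over its CpGs in primary replicates 1 to 4. These would allow up to 2.52%, 1.45%, 2.11% and 1.60% if all were independent molecules, and more if not. MT2 replicates read 76.1%, 83.1%, 82.7% and 43.4%, and the rise passed the quasi-binomial test (adjusted p = 3.06e-05). KB708159.1:12091001-12092000 read 94.9% to 100% in MT2 and 9.33% to 15.1% in primary cells. KB708148.1:4772001-4773000 read 71.1% to 98.1% in MT2, but its primary libraries ranged from 0% to 42.2%.

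Dense tiles that fell were fewer, 52 of 3958, a count in which starting level was not held equal. In the last 2 named here the fetuses lay far apart. KB708209.1:1560001-1561000 fell from 90.3% ± 7.86 (SD, n = 4) to 34.0% ± 12.3 (SD, n = 4). KB708140.1:3617001-3618000 had 34.2%, 34.5%, 74.2% and 97.5% in primary cells and 2.25% to 12.6% in MT2. KB708344.1:1448001-1449000 had 78.4%, 33.7%, 24.1% and 45.1% in primary cells and 0% to 4.08% in MT2. A call had been a condition of choice for the 18 named tiles. All of them kept their direction and call under every alternative in which they could be fitted.

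The reach of the changes was measured first by enlarging the unit. Windows of 10 kb with at least 5 CpGs were called in 17.7% of 4755 cases, 8.75% lower and 8.96% higher. Windows of 100 kb with at least 10 CpGs were called in 19.2% of 2767, 11.2% lower and 7.91% higher, and windows of 1 Mb with at least 50 CpGs in 29.5% of 573, 21.8% lower and 7.68% higher. Lower units made up 58.9% of called tiles, 49.4% of 10 kb windows, 58.7% of 100 kb windows and 74.0% of 1 Mb windows. The last share was 59.9% with limma on the mean logit, and the larger windows hold other CpGs than the tiles, since their minimum number differs.

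Differences of called units were smaller in 1 Mb windows than in tiles. The median reads per called unit rose from 224 in tiles to 4156.5 in 1 Mb windows, so smaller differences could be called there. The part of depth in the medians below was not tested. The median fall of called units was -29.2 points in tiles, -24.7 in 10 kb, -19.4 in 100 kb and -10.9 points in 1 Mb windows. The median rise was 19.9, 15.6, 15.8 and 8.06 points. Falls of 25 points or more were seen in 776 of 10178 tiles but 2 of 573 windows of 1 Mb. Rises of that size were seen in 343 tiles and no 1 Mb window (quasi-binomial calls).

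Called windows seldom joined into long stretches. The 311 windows of 100 kb called lower formed 281 runs, of which 257 were single windows and 5 had 3 or more, and the longest was 400 kb. The 219 called higher formed 209 runs, of which 200 were single windows, and the longest was 300 kb. Allowing 1 uncalled or untested window inside a run lengthened the longest lower run to 600 kb. Many windows had no tested neighbour, since RRBS reads a scaffold in patches: 169 of the lower and 127 of the higher windows had one.

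Where a neighbour had been tested, lower windows adjoined lower windows more often than the background. Of 227 tested neighbours of lower 100 kb windows 26.4% were also lower, beside a background of 11.2%, and 3.96% were higher. Of 178 neighbours of higher windows 11.2% were also higher, beside 7.91%. At 1 Mb the shares were 36.8% of 136 neighbours for lower windows, beside 21.8%, and 13.6% of 44 for higher ones, beside 7.68%. Neighbouring windows share scaffold and base composition, and no test was made of these shares.

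The longest falling run, KB708140.1:3400001-3800000, held 69 CpGs and read 29.6%, 28.1%, 25.1% and 28.4% in MT2 and 43.0%, 43.3%, 41.5% and 43.7% in primary cells. Of its CpGs 66.7% were lower in MT2, 11 were called lower and none higher. Its 15 dense CpGs differed little, at 18.5% against 21.6%, while its 11 sparse ones had 33.8% against 49.1%.

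KB708244.1:800001-1100000 fell from 62.7% ± 5.15 (SD, n = 4) to 39.97% ± 1.77 (SD, n = 4), and KB708147.1:2900001-3200000 from 50.8% ± 4.00 to 28.4% ± 3.31 (SD, n = 4 each). In the former the 6 sparse CpGs had 59.6% in MT2 and 60.9% in primary cells. In the latter the 8 sparse CpGs had 21.5% in MT2 and 60.0% in primary cells, and MT2 held 1.29 times the primary share of reads. The same scaffold held a rise. KB708147.1:4500001-4700000 read 64.7%, 61.5%, 57.6% and 61.2% in MT2 and 37.7%, 36.0%, 33.0% and 35.7% in primary cells. MT2 held 1.19 times the primary share of reads there, and 1.29 times at the rising tile KB708147.1:322001-323000 named above.

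Rising runs were shorter or shallower. KB708274.1:2100001-2400000 rose from 32.2% ± 2.27 to 39.1% ± 1.96 (SD, n = 4 each) over 134 CpGs, of which 5 were called higher. KB708201.1:7100001-7300000 rose from 58.2% ± 1.04 to 76.6% ± 2.01 (SD, n = 4 each), with its 16 sparse CpGs at 67.1% against 47.9%. Here sparse CpGs were higher, against the order seen over all members.

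Windows of 1 Mb were named from those called without overlap of the groups, 106 lower and 32 higher. Those with the largest differences fell further than they rose. KB708244.1:1000001-2000000, with 82 CpGs, read 35.8%, 37.7%, 40.4% and 34.8% in MT2 and 67.1%, 68.0%, 70.6% and 69.2% in primary cells (quasi-binomial model, adjusted p = 3.56e-15). It shares 100 kb with the falling run on that scaffold. KB708174.1:10000001-11000000 fell from 67.5% to 41.0%. KB708148.1:4000001-5000000 rose from 33.8% to 49.0% and holds the dense tile on that scaffold named above, and KB708142.1:1000001-2000000 rose from 44.7% to 59.6%, with MT2 replicates between 53.4% and 70.1%. The 4 windows kept their direction and call under every alternative in which they could be fitted.

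**Figure D4:**
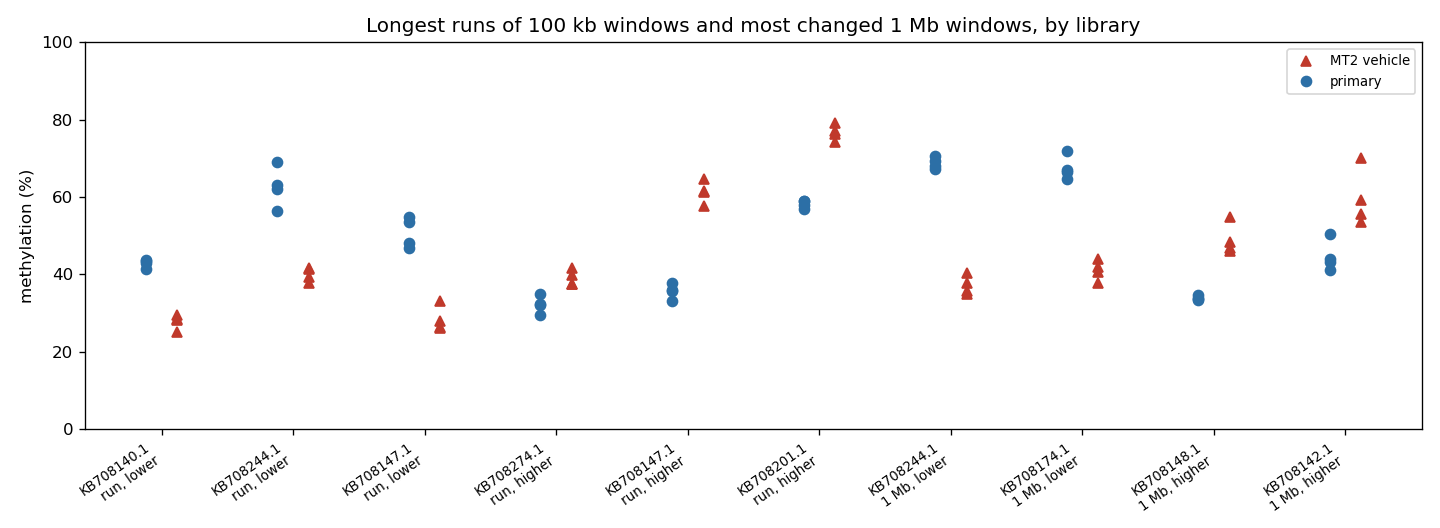
Methylation (%) of each MT2 vehicle library (triangles) and primary library (circles) over the 3 longest falling and rising runs of 100 kb windows and the 2 most changed 1 Mb windows in each direction. The groups do not overlap in any of the 10 regions. For the 1 Mb windows this and a call were conditions of choice, and runs were built from called windows. The falls of the 1 Mb windows are wider than the rises.

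Within 1 Mb windows called lower the losses lay in CpGs that started at 20% or more. Those windows had been chosen by the same reads, so the values are a description. Their CpGs that started at 20 to 50% had 43.0% in the held-out primary libraries and 32.7% in MT2. Those at 50 to 80% had 65.3% in the held-out primary libraries and 48.9% in MT2, and those at 80% or more had 84.5% and 70.4%. Their 2124 dense CpGs that started below 5% were at 0.824% and 3.06%, a difference of +2.24 points. The same kind of CpG differed by +2.23 points in windows called higher and by +1.43 points in windows that were not called. Of the 1264 tiles inside lower windows 243 were called lower (19.2%) and 72 higher (5.70%), beside 8.55% higher over all tiles.

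The 40507 CpGs outside any tested 1 Mb window, which lie where members are few, differed by -5.26 points. Among them the sparse CpGs differed by -10.6 points and the dense ones by +1.75.

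Pairs of CpGs showed how far a difference resembled that of a neighbour. The mean difference of each combination of starting level and density was first removed from every CpG, so that shared class does not count as likeness. For pairs that both started at 50% or more the correlation was 0.357 within 100 bp (19806 pairs), 0.175 from 300 bp to 1 kb, 0.118 from 10 to 20 kb and 0.064 from 100 to 200 kb (115903 pairs). It was 0.026 from 500 kb to 1 Mb and 0.0060 from 2 to 5 Mb. For pairs that both started below 20% it began as high, at 0.390, but was 0.092 from 300 bp to 1 kb, 0.026 from 10 to 20 kb and 0.0040 from 100 to 200 kb (178102 pairs).

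Density divided the pairs in the same way. Sparse pairs were at 0.287 within 100 bp, 0.157 from 10 to 20 kb and 0.081 from 100 to 200 kb, whereas dense pairs were at 0.351, -0.0037 and -0.0035. Beyond 1 kb no bin of dense pairs exceeded 0.042 and none of pairs that started below 20% exceeded 0.077, while from 200 to 500 kb sparse pairs and pairs that started at 50% or more were still at 0.056 and 0.045. Pairs of one bin share CpGs, reads within 100 bp can be the same reads, and all pairs share the 8 libraries, so these correlations are a description across CpGs.

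**Figure D5:**
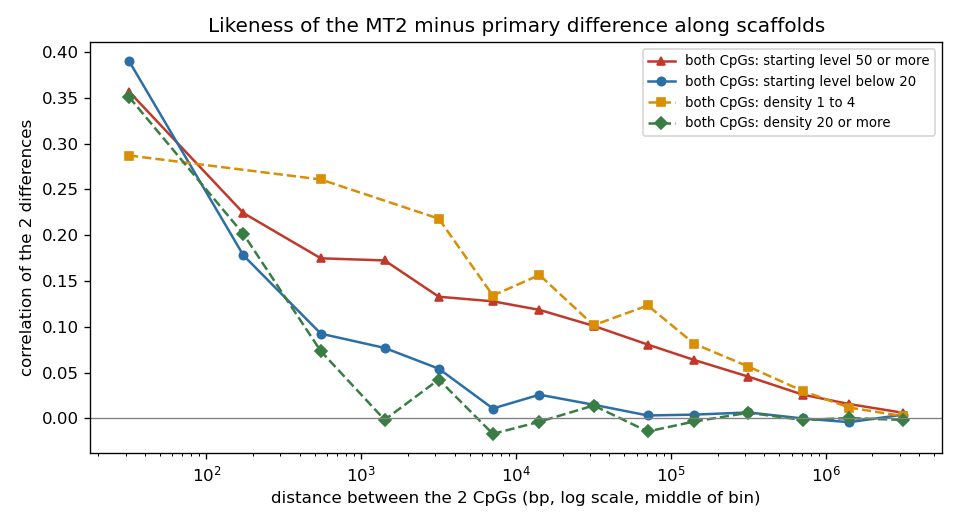
Correlation between the MT2 minus primary differences of 2 CpGs on a scaffold, after removal of class means, against their distance in bp (log axis, 1 point per distance bin), for pairs that share a starting level or density class. Pairs starting at 50% or more and sparse pairs stay above 0.05 out to 200 kb, while dense pairs and pairs starting below 20% are near 0 beyond 5 kb.

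Calls were also counted by distance. Of the members within 100 bp of a CpG called lower 33.9% were called lower too, and of those 300 bp to 1 kb away 15.6%, beside a background of 5.81%. From 20 to 50 kb the share was 7.12%. For CpGs called higher the shares were 30.4%, 4.70% and 3.48%, beside 2.74%. Of tiles 20 to 50 kb from a lower tile 14.3% were lower, beside 12.3%. Of those as far from a higher tile 13.1% were higher, beside 8.55%. At this distance both directions stood above their background, and these shares showed no wider reach of losses than of gains. CpGs close together also share starting level and density. Among neighbours with a primary level within 10 points, the lower shares were 21.0% from 300 bp to 1 kb and 13.8% from 20 to 50 kb. The higher shares at these distances were 4.33% and 3.25%. Only the neighbours were matched, and by level alone, and no background matched for level or density was computed.

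Whole scaffolds repeated the split between sparse and dense CpGs, here without separation by starting level. Dense members mostly started low and sparse ones high, so density and starting level cannot be told apart in these counts. Of 142 scaffolds with at least 200 members, MT2 lay below primary cells without overlap on 72, above on 10, and overlapped on 60. On 139 of them at least 20 sparse and 20 dense members could be compared: sparse CpGs were lower in MT2 on 130, dense CpGs higher on 128, and both held on 121. The median difference was -6.86 points for sparse and +1.81 points for dense CpGs. The extremes were KB708198.1, with 52.8% in primary cells and 39.6% in MT2 over 230 CpGs, and KB708245.1, with 45.3% and 50.0% over 231.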

How the data were processed

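Per the submitters' processing notes, the tools were methylKit 1.10.0, R 3.6.1, Bowtie2, Bismark 0.22.1, Trim Galore 0.5.0 and bcl2fastq 2.20.0.42, with no order given; a genome build was not given in the sources used here. The authors deposited, for each strand position, coverage as a read count and the percent of C and of T reads, listed from 10 reads; handling of duplicate reads is not stated, so the number of molecules is unknown. Methylated reads were coverage times percent C, rounded, and strands were summed. Levels are means over CpGs. Calls came from a quasi-binomial logistic model (numpy 2.4.6, scipy 1.17.1) with dispersion moderated by limma 3.58.1 in R 4.3.3, not below 1, with Benjamini-Hochberg adjustment over all units of a size. Other tests were exact two-sided permutations over libraries (70 splits for 4 against 4). The tests were tested on simulated data. Alternatives were read minimum, coverage limit, scaffolds, density distance, starting libraries, unit size, dispersion, limma, replicate block and leaving out each library. Classes with under 100 CpGs were left out. Members, classes and rules were chosen with earlier results of these data known; the dense-less-sparse contrast, the scaffold counts, the alternatives of 10 kb and 1 Mb windows and the swapped held-out fit were added after the data were seen. Named units followed the rule given with them.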

Additional observations from a re-analysis of the deposited data

Results flagged for a closer look

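In 104 groups of 4 libraries (the mean level, the classes of mean level and the named regions, each group apart), 8 had a library far from the other 3, by a gap beyond the 95% limit of Dixon's test. Chance alone gives about 1 in 20 groups, so this number is not far from that.

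In 4 of the 8 the library was in a class of mean level. Primary cells had a highest library of 0.386% below 5% and 6.08% at 5 to 20%, both at 30 or more CpGs nearby. MT2 had a highest library of 40.03% at 20 to 50% and a lowest of 92.6% at 80% or more, both at 20 to 29 CpGs nearby.

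The other 4 were named tiles. Primary replicate 1 read 52.2% at the falling tile KB708353.1:453001-454000. In MT2 the lowest library read 98.1% at KB708295.1:1568001-1569000 and 90.1% at KB708196.1:2994001-2995000, where the others were at 100%, and the highest read 4.08% at KB708344.1:1448001-1449000, where the others were at 0%.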

How the results depend on the processing

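The mean difference stayed negative in all alternatives run, from -5.91 to -1.003 points, and from -2.89 to -2.71 with 1 library left out. No dispersion term gave 51868 called CpGs and 7177 tiles. Limma on the mean logit gave 5051 CpGs, and 1 library left out gave 4923 to 6107: 4923 without MT2 replicate 1, 5165 without MT2 replicate 4 and 4981 without primary replicate 4. A minimum of 20 reads left 944 called tiles of 2736 and a minimum of 5 CpGs 512 of 3522 (45.1% lower). A minimum of 20 CpGs left 108 windows of 100 kb of 636 (46.3% lower); windows of 50 kb had longest runs of 150 kb in both directions. Held-out calls were 1931 with primary replicates 1 and 2 in place of 3 and 4, and 903 to 2952 with 1 library left out.

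At an equal mix of starting classes the density aggregate was -1.55 points at 20 reads, -3.42 within 100 bp, 7.29 within 500 bp and 1.32 with starting classes from primary replicates 3 and 4 (3.48 to 4.60 with 1 library left out). The level aggregate was -12.7 at 20 reads, -8.90 within 500 bp and -11.6 with those starting classes (-10.9 to -8.54 with 1 library left out). The dense less sparse contrast below 5% was 0.45 within 100 bp, 0.25 with density from members alone and 0.45 to 1.06 with 1 library left out; at 80% or more it passed the test within 500 bp, at 1.98.

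Single combinations of mean level and density reversed as follows. With density from members alone the sparsest class below 5% was 0.19, 5 to 9 nearby at 5 to 20% was 6.14, and 10 to 19 nearby was 10.98 at 20 to 50% and -0.35 at 80% or more. Within 100 bp, 5 to 9 nearby at 5 to 20% was 1.37, and 10 to 19 nearby was 7.44 at 20 to 50% and 1.28 at 50 to 80%. Within 500 bp, 5 to 9 nearby below 5% was -0.12. With 1 library left out, 10 to 19 nearby ranged from -2.42 to 1.54 at 20 to 50% and from -2.47 to 1.73 at 50 to 80%; doing so moves the class mean toward the group of 4 by construction.

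The replicate numbers are shared by wells and fetuses that the labels do not pair, and deviations of same-numbered libraries correlated at -0.024 to 0.032. A replicate block gave 9338 CpGs, 1964 tiles, 796 windows of 10 kb, 493 of 100 kb and 167 of 1 Mb, and changed no call of a named region. Depth limits single CpGs near 0%, and percentages with 2 decimals limit read counts at very high coverage.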
